A study of Homo sapiens with 8 samples.

Results

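The expression of 9 genes that make or remove hydrogen peroxide was followed in a human skin fibroblast line treated with the cytokine TGFB1, with celastrol, or with both. The set was chosen by name, but with earlier results of these data known. It holds NOX4 and CYBA, which form a peroxide-releasing NADPH oxidase, and the superoxide dismutases SOD1, SOD2 and SOD3. The other members are the peroxide-removing enzymes CAT, PRDX1, GPX1 and GPX3. All 9 have a row among the 24598 genes of the deposited table. CCD-1077Sk cells, labelled as fibroblasts from normal skin, were past passage 8 when treated and were collected after 6 h. The 8 libraries form 4 groups of 2. Celastrol, a triterpenoid of the plant Tripterygium wilfordii, was given at 500 nM in 2 groups, in one together with TGFB1 and in the other with BSA and citric acid, which the labels list in place of TGFB1. The TGFB1 group received the cytokine with DMSO, and the control group received BSA, citric acid and DMSO. How much TGFB1 was used was not given in the sources used here. All groups share 1 cell line in serum-containing medium, and nothing in the labels tells if a group's pair of libraries represents separate cultures. The p-values therefore reflect only library-to-library spread, possibly technical.

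NADPH oxidases carry electrons across a membrane to oxygen. Most of the family release superoxide, whereas NOX4 releases mainly hydrogen peroxide and is thought to be set mostly by how much of it is made, because it is active without the cytosolic activators that other family members need. It works in a complex with p22phox, the product of CYBA. In fibroblasts NOX4 is a known target of TGFB1 and has been linked to the change into contractile, matrix-producing myofibroblasts. Superoxide dismutases turn superoxide into hydrogen peroxide in the cytosol (SOD1), in mitochondria (SOD2) and outside the cell (SOD3). Catalase, encoded by CAT, breaks hydrogen peroxide down in peroxisomes. Peroxiredoxins and glutathione peroxidases reduce it with electrons from thioredoxin and glutathione.

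The sequence upstream of NOX4 and SOD2 is shown because these were the members whose levels differed most between groups. In each, the 250 bases before a RefSeq start site are given 5′ to 3′ on the gene's strand (GRCh38.p14, minus strand), and capitals mark the letters CAGAC or, on the other strand, GTCTG, the core that SMAD proteins, the transcription factors downstream of TGFB1, are known to bind. The NOX4 window is chr11:89491376-89491625 and the SOD2 window is chr6:159693242-159693491.
NOX4: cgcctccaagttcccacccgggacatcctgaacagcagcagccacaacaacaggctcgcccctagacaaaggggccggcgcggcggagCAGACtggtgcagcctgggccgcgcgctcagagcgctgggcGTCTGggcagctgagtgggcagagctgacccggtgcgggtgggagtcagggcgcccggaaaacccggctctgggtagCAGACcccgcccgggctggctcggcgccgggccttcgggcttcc
SOD2: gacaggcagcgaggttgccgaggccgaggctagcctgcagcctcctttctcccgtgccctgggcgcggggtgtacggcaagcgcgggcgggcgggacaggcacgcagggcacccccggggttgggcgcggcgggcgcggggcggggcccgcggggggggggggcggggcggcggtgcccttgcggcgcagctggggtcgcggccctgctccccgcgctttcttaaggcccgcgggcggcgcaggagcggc

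The NOX4 window holds the core 3 times, at 162, 121 and 44 bases before the start. The SOD2 window holds none. These letters were chosen after the values were seen and after the NOX4 window was read. Their count in that window is therefore not a test. They are also common. Of 35116 RefSeq promoter windows (250 bases before to 50 after a start), 45.3% hold them at least once on either strand and 2.86% at least 3 times. The 2 other NOX4 windows in RefSeq hold none, and of the 3 other SOD2 windows 1 holds the core once. Among the other members, the GPX1 window holds it 2 times and the SOD3 and GPX3 windows once each, while those of CYBA and CAT hold none. Of 4 longer motifs searched on both strands in the windows of 7 members, 1 match was found, a CAGACA in the GPX1 window. CAGACA, which contains the core above, stands in 16.9% of all windows, the antioxidant response element core TGACNNNGC in 13.3%, the AP-1 site TGANTCA in 7.71% and a 13-letter heat shock element in 0.49%. SOD1 and PRDX1 were not searched. A match describes the letters only.

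Values below are normalized reads, that is, estimated reads divided by a size factor per library, and are not scaled by gene length. Library depth was 20716711 to 42518361 estimated reads, and a count of 0 allows up to 3 reads, or 1.8 to 4.24 normalized reads. The labels name no molecular identifiers, so reads need not be separate molecules and the limit covers nothing beyond counting. Over the libraries, estimated reads ranged over 106 to 1021 for NOX4, 360 to 802 for CYBA, 1258 to 2983 for SOD1, 1278 to 5158 for SOD2 and 579 to 1825 for CAT. They ranged over 6336 to 14867 for PRDX1 and 1622 to 4874 for GPX1. SOD3, with 38 to 125 reads, and GPX3, with 11 to 46, were the shallowest members, and their differences are the least precise. All 9 fibroblast markers examined, among them COL1A1, THY1 and VIM, were detected in every library. Their summed level was 377449 to 440371 with both agents, 549062 to 669225 with TGFB1, 396484 to 471780 with celastrol and 468077 to 492696 in control. The summed level of the 4 endothelial markers analysed (PECAM1, VWF, KDR and TEK) was 360 to 465 with both agents, 354 to 370 with celastrol, 52.7 to 98.9 with TGFB1 and 52.8 to 92.5 in control. Likewise, 2 melanocyte markers (MLANA and PMEL) summed to 95.7 to 134 in the 4 celastrol libraries and to 8.75 to 14.1 in the other 4, with MLANA at 0 in both control libraries. The 5 immune markers analysed summed to 403 to 547 in the celastrol libraries and to 245 to 369 in the others. The 2 keratinocyte markers analysed (KRT10 and CDH1) summed to 880 to 1065 in all 8, and CDH1 averaged only 7.96 with both agents. KRT1, KRT5, KRT14, CDH5, TYR, DCT and CD3E were also listed as markers but have no row in the deposited table. These sums do not establish a cell type. The part of the analysed markers in the results below was not tested. In bulk RNA, fewer cells of a type and less RNA per cell cannot be told apart.

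**Figure D1:**
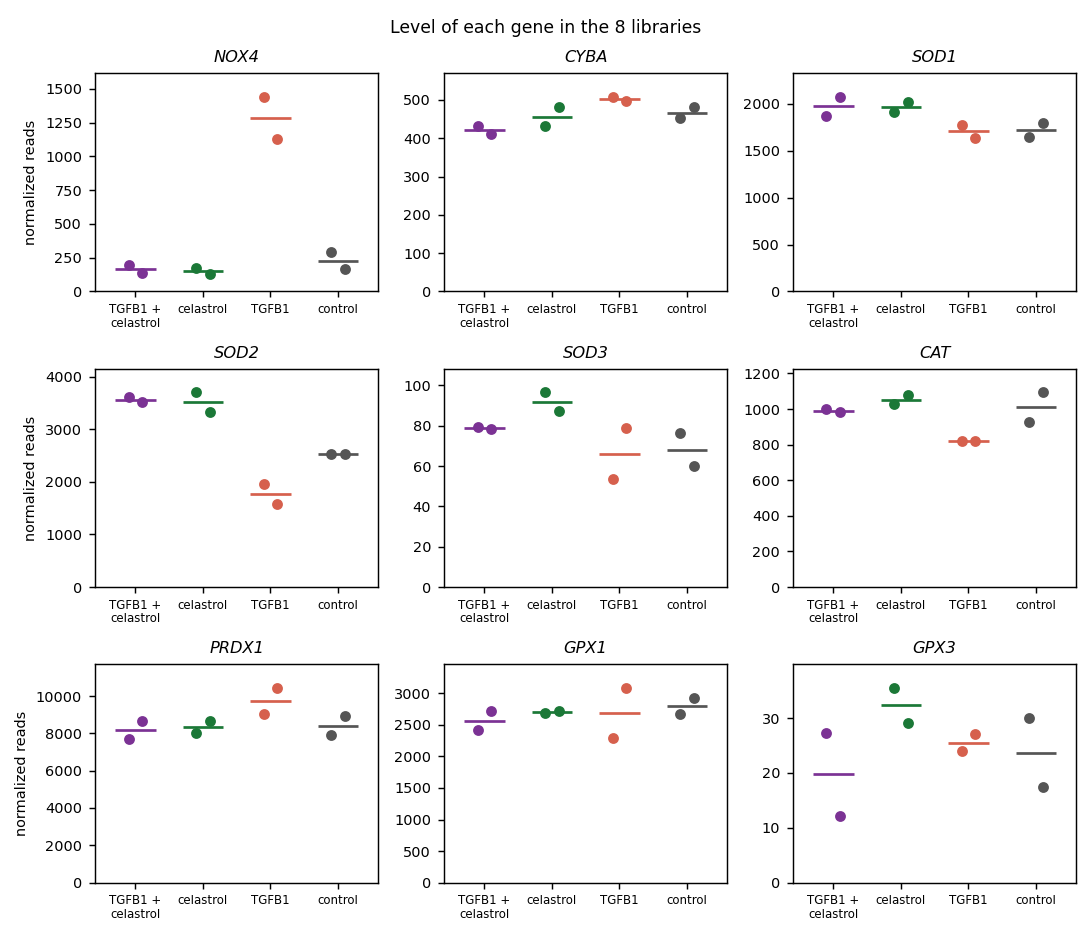
Normalized reads of the 9 members in each of the 8 libraries, by group, 1 panel per gene on a linear axis from 0, with points for libraries and lines for group means. NOX4 stands at 1127 and 1442 in the TGFB1 libraries and at 128 to 289 in all others, and SOD2 is higher in the 4 celastrol libraries than in the other 4.

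NOX4, the catalytic subunit (hg38 chromosome 11, bases 89324353 to 89498187, minus strand), was the member that moved most. With TGFB1 and celastrol together its normalized reads were 198 and 139, and with TGFB1 alone 1442 and 1127. With celastrol alone they were 171 and 128, against 289 and 167 in control. Both TGFB1 libraries stood far above the other 6, which overlapped with each other across groups. The highest library was 11.2 times the lowest, the widest range of the 9 members.

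The first comparison asked what TGFB1 did to these genes. NOX4 rose, with a log2 fold change of 2.53 on the log2(value + 1) scale (SE 0.28, 95% interval 1.89 to 3.17, limma adjusted p = 0.00037), a 5.79-fold difference. Fitted to the TGFB1 and control libraries alone, the same fold change had an adjusted p of 0.0607. Among the 22866 genes tested, its fold change ranked 108 from the highest. SOD2 and CAT fell, and the other 6 members did not pass the threshold. That makes 1 of 9 members higher, where 12.8% of all genes tested were higher, and 2 of 9 lower, where 10.6% of all genes were lower. Calls in either direction covered 23.5% of all genes. The median log2 fold change of the 9 members was -0.01, against 0.00 for all genes tested.

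The next comparison added celastrol to TGFB1. NOX4 fell, with a log2 fold change of -2.94 (SE 0.28, 95% interval -3.58 to -2.30, limma adjusted p = 3.39e-05), a level 7.66-fold lower than with TGFB1 alone, and ranked 153 from the lowest of all genes tested. SOD1, SOD2 and CAT rose, and CYBA and PRDX1 also fell. Thus 3 of 9 members were higher, beside 37.5% of all genes, and 3 of 9 lower, beside 25.9%; calls in either direction covered 63.4% of all genes, so a call in this comparison is common. The median over the members was -0.05, against 0.12 for all genes. This comparison and the previous one share the TGFB1 libraries, so their opposite signs are not independent of each other.

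Without TGFB1, celastrol raised 1 of 9 members, SOD2, beside 33.8% of all genes that were higher and 55.1% called in either direction. NOX4 had a log2 fold change of -0.56 against control (95% interval -1.21 to 0.08, limma adjusted p = 0.12). The size of this difference rested on the control libraries: without control replicate 2 it was -0.96 (limma adjusted p = 0.0204), and without control replicate 1 it was -0.17. With both agents NOX4 was at -0.40 against control (95% interval -1.05 to 0.24, limma adjusted p = 0.255), or -0.80 without control replicate 2 (limma adjusted p = 0.0409). SOD2 was again the 1 member called, higher, beside 34% of all genes that were higher and 55.6% called in either direction. Setting TGFB1 with celastrol against celastrol alone, limma called 0 of 9 members, none at an unadjusted p under 0.05 either, where 0.00875% of all genes, 2 of 22866, were called (0.00437% in each direction) and 868 had an unadjusted p under 0.05. For NOX4 this difference was 0.16 with a 95% interval from -0.48 to 0.80, which excludes the 2.53 seen without celastrol.

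The interaction, the celastrol difference with TGFB1 minus that without it, was -2.37 for NOX4 (SE 0.40, 95% interval -3.28 to -1.47, limma adjusted p = 0.00657) and 0.55 for SOD2 (SE 0.14, 95% interval 0.22 to 0.87, limma adjusted p = 0.0424). These 2 of 9 members were called where 11.3% of all genes were, with 4.36% higher and 6.89% lower. The NOX4 interaction missed the threshold without the trend of variance on mean (adjusted p = 0.0554) and, at -2.12, without replicate 2 of the combined group (0.0548). The SOD2 interaction lost its call on leaving out any 1 library other than TGFB1 replicate 1, with adjusted p between 0.0506 and 0.167, and had 0.0049 without that one. With each library centred on its median gene it was 0.43 (adjusted p = 0.0922).

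**Figure D2:**
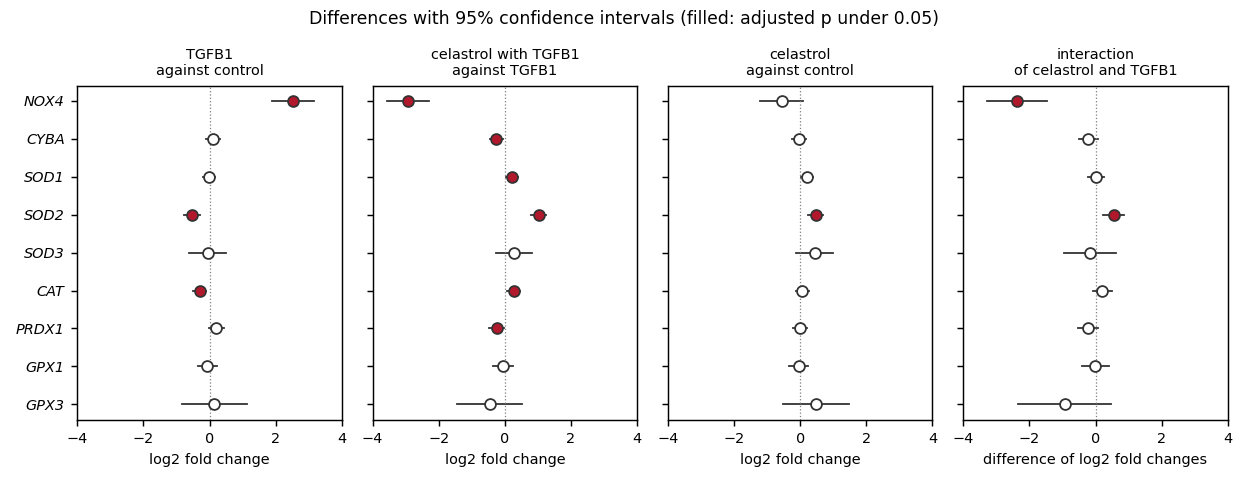
Log2 fold changes of the 9 members with 95% intervals from the limma fit, 1 panel per comparison and the interaction last, where filled points passed the adjusted threshold and the dotted line marks no difference. NOX4 lies at 2.53 for TGFB1 against control and at -2.94 for celastrol with TGFB1 against TGFB1, while the other members lie within about 1 of 0.

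CYBA (chromosome 16, bases 88643289 to 88651054, minus strand), whose product p22phox holds NOX4 in its complex, changed little beside its partner. Its normalized reads were 433 and 410.5 with TGFB1 and celastrol, 508 and 497 with TGFB1, 431 and 482 with celastrol alone, and 453 and 481 in control. The TGFB1 libraries were the 2 highest of the 8, and those with both agents were lower than both of them without overlap. The fall with celastrol on top of TGFB1 was -0.25 (SE 0.09, 95% interval -0.46 to -0.04, limma adjusted p = 0.0376). That call was lost without any 1 library of the control, TGFB1 or combined group (adjusted p 0.0547 to 0.147) and when libraries were scaled to a common total (0.389). TGFB1 against control gave 0.11 (95% interval -0.10 to 0.32, limma adjusted p = 0.457).

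Set per kilobase of exon, NOX4 and CYBA changed places between groups. The exon totals, 6.096 kb for NOX4 and 3.357 kb for CYBA, are summed over all annotated transcripts. Which gene stands higher depends on these lengths. NOX4 averaged 27.6 normalized reads per kb with TGFB1 and celastrol, 211 with TGFB1, 24.5 with celastrol and 37.4 in control. CYBA averaged 126, 150, 136 and 139 in the same groups. The ratio of NOX4 to CYBA per kb was 0.252 and 0.186 with both agents and 1.56 and 1.25 with TGFB1. With celastrol alone it was 0.218 and 0.147, against 0.351 and 0.191 in control. With these exon totals, NOX4 exceeded CYBA per kb in the TGFB1 libraries and in no other. Lengths of single transcripts were not tried.

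SOD2 (chromosome 6, bases 159669069 to 159762529, minus strand), the manganese superoxide dismutase of mitochondria, had 3616 and 3514 normalized reads with both agents, 1965 and 1571 with TGFB1, 3709 and 3335 with celastrol alone, and 2536 and 2531 in control. The celastrol libraries were the 4 highest and the TGFB1 libraries the 2 lowest, with no overlap between these and control. SOD2 fell with TGFB1 by 0.53 on the log2 scale (log2 fold change -0.53, SE 0.10, limma adjusted p = 0.00631). It rose with celastrol on top of TGFB1 by 1.02 (95% interval 0.79 to 1.25, limma adjusted p = 3.98e-05), a 2.03-fold difference, and with celastrol alone by 0.47 (95% interval 0.24 to 0.70, limma adjusted p = 0.0039). With both agents it was 0.49 above control (limma adjusted p = 0.00312) and differed from celastrol alone by 0.02 (95% interval -0.21 to 0.25). Its exons overlap those of WTAP and ACAT2 on the opposite strand and SOD2-OT1 on the same strand by 437, 1141 and 939 bases in GENCODE 29. Strand use in counting was not given in the sources used here, so reads of these genes may be shared.

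SOD1 (chromosome 21, bases 31659666 to 31668931, plus strand), the copper and zinc enzyme of the cytosol, had 1872 and 2074 normalized reads with both agents, 1777 and 1636 with TGFB1, 1913 and 2013 with celastrol alone, and 1639.6 and 1789 in control. All 4 celastrol libraries stood above the other 4. The rise with celastrol on top of TGFB1 was 0.21 (SE 0.08, 95% interval 0.03 to 0.39, limma adjusted p = 0.0434). It lost its call without any 1 of 6 libraries (adjusted p 0.0515 to 0.243) and turned to -0.079 when each library was centred on its median gene. Celastrol alone gave 0.20 (limma adjusted p = 0.0614) and both agents against control 0.20 (limma adjusted p = 0.0549), both short of the threshold, while TGFB1 against control gave -0.01 (95% interval -0.19 to 0.17). SOD1, SOD2, PRDX1 and GPX1 have pseudogenes in the annotation, so part of their reads could be assigned elsewhere.

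SOD3 (chromosome 4, bases 24789912 to 24800842, plus strand), the secreted enzyme, had 79.2 and 78.1 normalized reads with both agents, 53.7 and 78.7 with TGFB1, 96.6 and 87.2 with celastrol alone, and 76.3 and 60.0 in control. The celastrol-alone libraries were the 2 highest, and the 2 TGFB1 libraries spanned the control range. No comparison called it. The interval for celastrol against control, 0.43 with bounds of -0.12 and 0.98, includes 0.

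CAT (chromosome 11, bases 34438934 to 34472060, plus strand) had 998 and 984 normalized reads with both agents, 818 and 819.8 with TGFB1, 1028 and 1077 with celastrol alone, and 924 and 1095 in control. The TGFB1 libraries were the 2 lowest and lay close together. CAT fell with TGFB1 by 0.30 (log2 fold change -0.30, SE 0.09, 95% interval -0.49 to -0.10, limma adjusted p = 0.0385) and rose with celastrol on top of TGFB1 by 0.28 (95% interval 0.08 to 0.47, limma adjusted p = 0.0212). The fall lost its call without any 1 of 7 libraries, all but control replicate 1 (adjusted p 0.0639 to 0.233), and was -0.18 with an adjusted p of 0.207 with libraries centred on their median gene. The rise lost it without any 1 library of the TGFB1 or combined group (0.0606 to 0.0914) and was -0.013 under the same centring. Celastrol alone gave 0.06 (limma adjusted p = 0.556).

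PRDX1 (chromosome 1, bases 45510914 to 45542732, minus strand), a thioredoxin-dependent peroxidase of the cytosol, was the most abundant member. It had 7701 and 8637 normalized reads with both agents, 9031 and 10451 with TGFB1, 8025 and 8652 with celastrol alone, and 7924 and 8918 in control. The TGFB1 libraries were the 2 highest, and the other 3 groups overlapped. The fall with celastrol on top of TGFB1 was -0.25 (SE 0.09, 95% interval -0.47 to -0.04, limma adjusted p = 0.0435). Leaving out 1 of 5 libraries (TGFB1 replicate 2 or any with celastrol) ended the call, with adjusted p from 0.0506 to 0.262, as did scaling to a common total (0.415). TGFB1 against control gave 0.21 (95% interval -0.01 to 0.42, limma adjusted p = 0.153), or 0.33 (0.0345) with libraries centred on their median gene and -0.017 with a common total. PRDX1 shares 379 exonic bases with MMACHC on the opposite strand.

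GPX1 (chromosome 3, bases 49357176 to 49358358, minus strand), the selenium-containing glutathione peroxidase found in most cells, had 2419.5 and 2717 normalized reads with both agents, 2291 and 3092 with TGFB1, 2687 and 2719 with celastrol alone, and 2671 and 2923 in control. The 2 TGFB1 libraries were the lowest and the highest of all 8. None of the comparisons called GPX1. The log2 fold change was -0.07 (95% interval -0.36 to 0.22) for TGFB1, -0.05 (-0.34 to 0.24) for celastrol with TGFB1 and -0.05 (-0.34 to 0.24) for celastrol alone. For celastrol with TGFB1 it moved to -0.34 (limma adjusted p = 0.035) under median centring and to -0.27 (0.0333) without TGFB1 replicate 1. GPX3 (chromosome 5, bases 151020438 to 151028992, plus strand), the secreted glutathione peroxidase of plasma, had 27.3 and 12.1 with both agents, 24.0 and 27.0 with TGFB1, 35.6 and 29.1 with celastrol alone, and 30.0 and 17.4 in control. Its 2 libraries within a group differed by up to a factor of 2.26, and its intervals were the widest of the 9: 0.15 with bounds of -0.84 and 1.14 for TGFB1, and -0.46 with bounds of -1.45 and 0.53 for celastrol with TGFB1.

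Calls other than that of NOX4 also depended on the fit. Without the trend of variance on mean, the calls of CYBA, SOD1, PRDX1 and CAT for celastrol with TGFB1 ended, at adjusted p between 0.06 and 0.13, as did the fall of CAT with TGFB1 at 0.117 and the SOD2 interaction at 0.161. Fitted to the compared libraries alone, the falls with TGFB1 of SOD2 and CAT had adjusted p of 0.13 and 0.197, and the calls of CYBA, SOD1 and PRDX1 for celastrol with TGFB1 had 0.0568 to 0.08. The rises of SOD2 with celastrol, with and without TGFB1, kept their calls in all the alternatives run.

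Per kilobase of exon, the mean over groups ordered the members as PRDX1 (5695 normalized reads per kb), GPX1 (1881), SOD1 (911), CAT (270), SOD2 (156), CYBA (138), NOX4 (75.0), SOD3 (35.8) and GPX3 (8.0). Each of PRDX1, GPX1, SOD1 and CAT exceeded the next in all 8 libraries, as SOD3 exceeded GPX3. The order of the neighbours in between differed by group. SOD2 exceeded CYBA in the 4 celastrol libraries and fell below it in both TGFB1 libraries, with 1 control library on each side, 5 of 8 in all. CYBA exceeded NOX4 in 6 libraries, all but the TGFB1 pair. NOX4 exceeded SOD3 in 3 libraries, both TGFB1 libraries and 1 control library, and was below it in all 4 celastrol libraries. All these levels, and the order they give, depend on exon totals summed over all annotated transcripts, which need not be the transcripts made here. For SOD2 the total is 18.206 kb, which lowers its value per kb.

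The genes around the members were described from 6 lists with 88 genes, of which 72 were tested. For each list, counts are of genes that passed limma's adjusted threshold, with the medians of all genes tested standing at 0.00 for TGFB1 against control, 0.12 for celastrol with TGFB1 and 0.08 for celastrol alone. Of all genes tested, 12.8% were higher and 10.6% lower with TGFB1, 37.5% and 25.9% with celastrol on top of TGFB1, and 33.8% and 21.3% with celastrol alone, and each list's counts are to be read beside these shares. For the difference between TGFB1 with celastrol and celastrol alone, limma called none of the 72, and 3 had an unadjusted p under 0.05. Counts by list move with the scaling of libraries. Scaling to a common total shifted the median of all genes to -0.21 for TGFB1 and to 0.28 for celastrol with TGFB1, and centring each library on its median gene shifted them to 0.12 and -0.17.

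Of the NADPH oxidase subunits and partners other than NOX4 and CYBA, 9 were tested. NOX1, NOX3, CYBB and DUOX1 are among those without a row in the deposited table. With TGFB1, 2 rose and 1 fell, with a median of 0.00. RAC1, the small GTPase that activates several oxidases, rose by 0.20, or had -0.023 with libraries scaled to a common total. NOX5, a calcium-regulated oxidase whose exons overlap SPESP1, had a log2 fold change of -1.23 at 21.4 ± 6.27 with TGFB1, against 50.7 ± 8.03 in control. The NOX5 call ended without TGFB1 replicate 1 or without any 1 library of the control or combined group. With celastrol on top of TGFB1, 3 rose and 3 fell, with a median of 0.47, and with celastrol alone 4 rose and 3 fell, with a median of 0.10.

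The risers with celastrol included 3 genes near or at 0 without it. DUOX2, a peroxide-releasing oxidase of thyroid and epithelia, averaged 47.5 ± 19.0 normalized reads with both agents and 44.2 ± 16.2 with celastrol alone, and was at or about 0 in all 4 other libraries. Its level with celastrol was at least 11.8-fold higher than control, taking the floor of 3 reads per library for control. DUOXA1, the maturation factor of the DUOX1 oxidase, averaged 34.8 ± 5.54 with celastrol, at least 9.29-fold higher than its control level of 0; its exons overlap those of DUOXA2 by 706 bases on the opposite strand. NCF1, the organizer p47phox, averaged 22.1 ± 2.10 with both agents, at least 5.22-fold higher than its level of 0 with TGFB1; NCF1 has near-identical copies, so its reads are uncertain. Such genes reached the table through the groups where they were high, so their count supports nothing about the list.

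**Figure D3:**
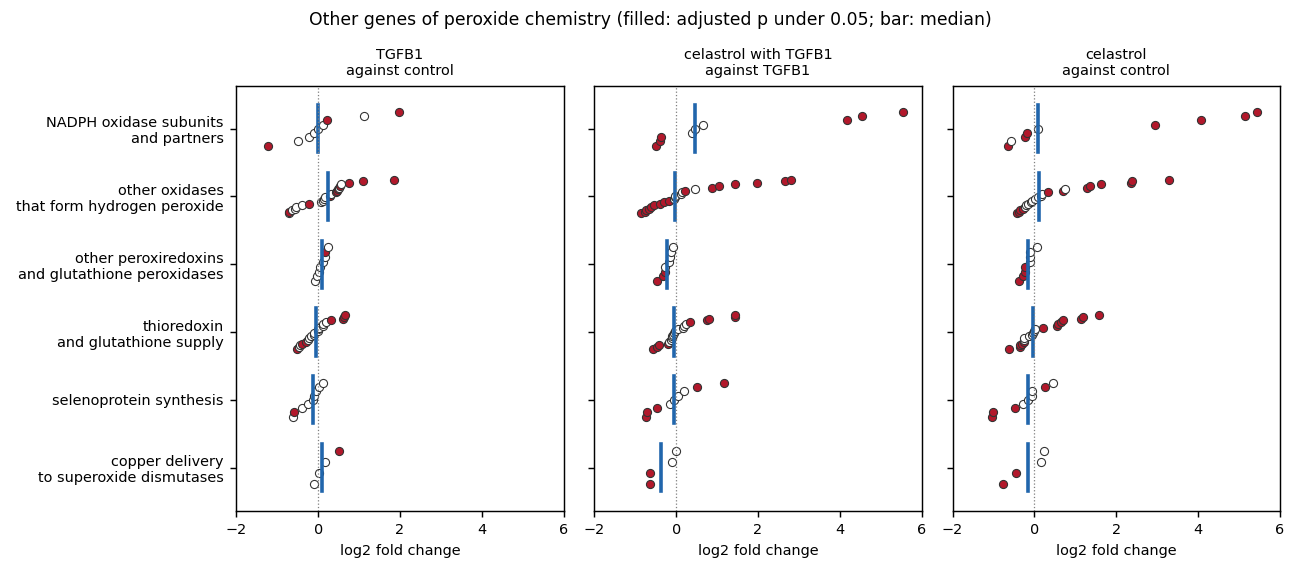
Log2 fold changes of the tested genes of the 6 lists in 3 comparisons, 1 panel each and 1 point per gene, with filled points for genes past the adjusted threshold of 0.05 and a blue bar at each list's median. The points above 4 for celastrol are DUOX2, DUOXA1 and NCF1, fitted values of genes near 0 without celastrol.

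Among 22 other oxidases that form hydrogen peroxide, 8 rose and 2 fell with TGFB1, with a median of 0.23 (3 rose with libraries scaled to a common total and 10 under median centring). SMOX, spermine oxidase, averaged 756 ± 42.0 normalized reads with TGFB1, against 207 ± 2.57 in control, a log2 fold change of 1.86 (limma adjusted p = 7.91e-06). ACOX3, an acyl-CoA oxidase of peroxisomes, rose by 1.10. The lysyl oxidases LOXL3 and LOXL4, which cross-link collagen and elastin outside the cell, rose by 0.53 and 0.49, and LOXL3 missed the threshold under the common total (limma adjusted p = 0.0612).

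With celastrol on top of TGFB1, 7 of the 22 rose and 9 fell, with a median of -0.03. DAO and PIPOX, among the risers, passed the filter on low values only through celastrol libraries. Their place in the count therefore supports nothing about the list. The 5 lysyl oxidases, grouped after their values were seen and not tested as a set, were among those that fell, also under both other scalings, and LOXL2, LOXL3 and LOXL4 had log2 fold changes of -0.76, -0.87 and -0.68. LOXL2 averaged 12370.3 ± 1233 normalized reads with both agents, against 20965 ± 415 with TGFB1. Exons of LOXL2 and LOXL3 overlap ENTPD4, and HTRA2 and DOK1. ERO1B, a protein disulfide oxidase of the endoplasmic reticulum, rose by 1.05 with TGFB1 and by 1.37 without it. Celastrol alone raised 8 of the 22, DAO again among them, and lowered 4, with a median of 0.12. The xanthine dehydrogenase gene XDH averaged 139 ± 36.7 with celastrol, against 25.4 ± 2.28 in control, a log2 fold change of 2.38. The amine oxidase gene AOC3 had 2.36 and SMOX 1.64.

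The other peroxiredoxins and glutathione peroxidases, 8 tested, mostly moved by small amounts. One rose with TGFB1, PRDX6 by 0.18 (limma adjusted p = 0.0424), or -0.048 under the common total, with a list median of 0.08 that turned to -0.14 under the common total, where 2 fell and none rose. With celastrol on top of TGFB1 none rose and 3 fell, with a median of -0.23 (1 fell under the common total and all 8 under median centring). These were PRDX6 at -0.48, PRDX4 at -0.32 and PRDX3 at -0.28. PRDX6, a peroxiredoxin that also acts on lipids, averaged 6994 ± 143 normalized reads with both agents, against 9779 ± 244 with TGFB1. With celastrol alone none rose and 4 fell, with a median of -0.16: PRDX6 at -0.28, PRDX3, the mitochondrial peroxiredoxin, at -0.22, GPX8 at -0.22 and GPX7 at -0.36.

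A further 20 genes supply these peroxidases with thioredoxin and glutathione. With TGFB1 4 rose and 3 fell, with a median of -0.05 that was 0.07 under median centring. GCLM and GCLC, which encode the subunits of the first enzyme of glutathione synthesis, rose by 0.64 each, and SRXN1, sulfiredoxin, which reactivates overoxidised peroxiredoxins, by 0.61. SRXN1 shares 2292 exonic bases with AL121758.1 and GCLC 529 with AL033397.1, both on the same strand, so their reads may be shared. With celastrol on top of TGFB1 5 rose and 4 fell, with a median of -0.05 (8 and 2 under the common total, with a median of 0.10, and 4 and 11 under median centring, with -0.34). SESN2, a stress-induced sestrin, averaged 1499 ± 32.3 normalized reads with both agents, against 554 ± 16.3 with TGFB1, a log2 fold change of 1.44. TXNRD1, thioredoxin reductase, rose by 0.74 and SLC7A11, the cystine importer, whose exons overlap SLC7A11-AS1, by 0.80, while the glutaredoxin GLRX3 had -0.57. Celastrol alone raised 8 and lowered 5, with a median of -0.03. GCLM averaged 4185 ± 121 with celastrol, against 1852 ± 123 in control, a log2 fold change of 1.18, and SESN2 rose by 1.58.

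Glutathione peroxidases such as GPX1 and GPX3 need selenocysteine, and SOD1 and SOD3 need copper. Of 9 selenoprotein synthesis genes, none rose and 1 fell with TGFB1 (median -0.12). That gene was SEPSECS, the enzyme that completes selenocysteine on its tRNA, at -0.59. With celastrol on top of TGFB1 2 rose and 3 fell (median -0.05, 0.11 under the common total), among them SEPHS2, which makes selenophosphate, at -0.48, and LRP8, a receptor that takes up selenoprotein P, at -0.75. The risers were SEPSECS, at 0.52, and SELENOP, which encodes selenoprotein P and overlaps CCDC152, at 1.16; both missed the threshold under median centring (limma adjusted p = 0.141 and 0.0788). With celastrol alone 1 rose and 3 fell (median -0.14). Of 4 copper delivery genes, CCS, the chaperone that loads SOD1, averaged 146 ± 12.6 normalized reads with both agents, against 229 ± 2.01 with TGFB1, a log2 fold change of -0.64. ATOX1, which carries copper to the secretory pathway, had -0.65. These 2 also fell with celastrol alone, at -0.77 and -0.45, while the copper pump gene ATP7A rose by 0.50 with TGFB1, short of the threshold under the common total (limma adjusted p = 0.0955).

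The 5 protein-coding genes whose log2 values across the 8 libraries lay closest to those of NOX4, each centred on its own mean, were PODXL, EFR3B, ADAM19, IGF1 and SEC14L2, among 13881 candidates. Their root mean square differences from NOX4 were 0.12, 0.25, 0.29, 0.29 and 0.29 on the log2 scale. PODXL, which encodes the surface sialomucin podocalyxin, had 458 and 298 normalized reads with both agents and 3301 and 2821 with TGFB1. With celastrol alone PODXL had 346 and 310, against 605 and 438 in control. As with NOX4, the TGFB1 libraries stood apart from the rest. Both control libraries of PODXL lay above both with celastrol alone, and overlapped those with both agents. ADAM19, a membrane metalloprotease, was the most abundant of the 5, at 21455 ± 208 with TGFB1, against 4886 ± 835 in control. IGF1, insulin-like growth factor 1, averaged 47.9 ± 19.5 with both agents, against 527 ± 146 with TGFB1. Being chosen for likeness across the same libraries, these genes carry no test, and nothing about shared control follows.

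**Figure D4:**
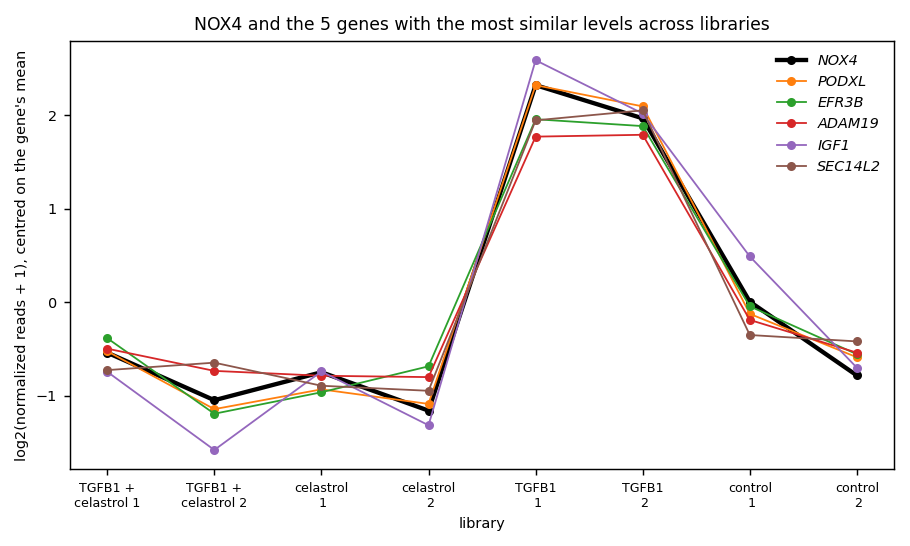
Centred log2 values of NOX4 and of PODXL, EFR3B, ADAM19, IGF1 and SEC14L2 in each of the 8 libraries, ordered by group. All 6 lines peak in the 2 TGFB1 libraries and lie lower in the 6 others.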

How the data were processed

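RNA from 8 libraries of CCD-1077Sk cells was extracted with TRIzol and sequenced after total RNA library preparation with a VAHTS kit, per the labels' protocols. The submitters' processing notes name hg38, STAR 2.7.3a, Partek 10.0.22 and DESeq2. The role of each, the annotation, the counting rule, its strand use and any filter were not given in the sources used here. As deposited, the signal is 1 normalized value per gene and library for 24598 genes. The values are fractional or whole reads divided by a size factor. Of the low values, 74.5% to 75.7% were whole reads within 0.02, and higher values were left out of that share. The values are neither scaled to a common total nor by length. They are normalized values and not counts, so a linear model on log2 values was used and no count model was fitted.

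The test took genes reaching 10 normalized reads in 2 or more libraries (22866), as log2(value + 1), which understates the change of low genes. limma 3.58.1 in R 4.3.3 fitted 1 mean per group to all 8 libraries, with a variance trend, 4 residual degrees of freedom, two-sided tests and Benjamini-Hochberg adjustment within each of 6 comparisons over all genes, called at 0.05. The fit was also run on simulated data with the same dispersion for every gene. That run does not cover members with a wider spread, such as NOX4 and GPX3. Up to 4 genes with the smallest p per list were named, and the 5 genes most like NOX4 among those with at least 50 normalized reads. One list gene is counted but not reported here. The members and lists were chosen with earlier results of these data known. Levels per kb use the exon union of GENCODE 29. Coordinates are the deposited ones, whose end column is 1 past the last base. Replicate numbers are those of the titles; for celastrol replicate 2 another label gives 3. Alternatives changed the pseudocount, filter, scaling, variance trend, libraries fitted and replicate block.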

Additional observations from a re-analysis of the deposited data

Results flagged for a closer look

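For the genes below, the limma interaction, in which the celastrol difference with TGFB1 is set against that without it, passed the adjusted threshold. It did so for 11.3% of all genes tested. Among the members, NOX4 had an interaction of -2.37 and SOD2 of 0.55 (log2). Both calls ended without the variance trend. That of NOX4 also ended without replicate 2 of the combined group, where the interaction was -2.12. That of SOD2 also ended under median centring and without any 1 of 7 libraries. Of the oxidase genes, SMOX had -1.67, ACOX3 -0.73, LOX -0.53, LOXL2 -0.54, LOXL3 -0.72 and LOXL4 -0.59. The glutathione and sulfiredoxin genes GCLC, GCLM and SRXN1 had -0.76, -0.83 and -0.77, and SEPSECS had 0.66. The values of these oxidase, glutathione, sulfiredoxin and SEPSECS genes are from the main fit only. Over all genes, interaction calls moved with scaling, from 997 higher and 1576 lower to 2474 and 801 with a common total. A negative interaction does not by itself mean a return to the control level. With both agents, SMOX, ACOX3, GCLC, GCLM and SRXN1 were called higher than control, LOX, LOXL2 and LOXL3 lower, and LOXL4 and NOX4 neither. SMOX averaged 741 normalized reads with both agents and 647 with celastrol alone, against 207 in control.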

How the results depend on the processing

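Of 903 values recomputed under the alternatives, 831 kept their side of the threshold, 53 lost the call, 17 gained it and 2 reversed. A reversal is a change of sign in a value called in the main fit or in the alternative. Sign changes of values called in neither are among the 831, as for CYBA with TGFB1, at -0.12 to 0.23. The 903 include values never called, so the 831 do not measure how stable the calls are. Both reversals were for celastrol with TGFB1 under median centring, SOD1 at -0.079 and CAT at -0.013. NOX4 with TGFB1 kept 2.53 but had an adjusted p of 0.0607 when only the compared libraries were fitted, where 1684 genes were called in place of 5364; fewer residual degrees of freedom remain in that fit. Its interaction of -2.37 had 0.0554 without the variance trend, which left 1245 genes called in place of 2573. For celastrol against control, NOX4 passed at -0.74 under median centring. Leaving out 1 library at a time gave NOX4 values of 2.14 to 2.93 for TGFB1, -3.19 to -2.68 for celastrol with TGFB1, -0.96 to -0.17 for celastrol alone, -0.80 to -0.010 for both agents against control and -2.77 to -1.98 for the interaction. The same step gave 3248 to 4757 genes called for TGFB1 and 1189 to 2715 for the interaction. For TGFB1 with celastrol against celastrol, 2 genes were called; pseudocounts of 0.5 and 5 gave 0 and 1, no filter, median centring and every left-out library 0, and a minimum of 50, no variance trend, the block and the compared libraries alone 1. The labels do not say if replicate numbers pair libraries across groups. Same-numbered deviations had correlations of 0.0499 to 0.0815 over all genes, which cannot settle this for a single gene. NOX4 was higher in replicate 1 than in replicate 2 in each of the 4 groups. A replicate block gave NOX4 -0.56 (adjusted p 0.00418) for celastrol alone and -0.40 (0.0214) for both agents against control, and called 6542 genes for TGFB1, 15312 for celastrol with TGFB1 and 3665 for the interaction. Scaling moved the split of higher against lower calls: for TGFB1, 2937 against 2427 became 1417 against 5398 with a common total and 4778 against 1775 under median centring; for celastrol with TGFB1, 8564 against 5933 became 9810 against 4183 and 6956 against 9094; for celastrol alone, 7737 against 4868 became 6751 against 7470 under median centring; for both agents against control, 7776 against 4929 became 6816 against 7477; and for the interaction, 997 against 1576 became 2474 against 801 and 784 against 2748. The cause of these changes was not tested. With 38 to 125 reads for SOD3 and 11 to 46 for GPX3, depth limits what can be said of both.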
